A study of Mus musculus with 7 samples.

Results

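The genes that encode Wnt ligands, their Frizzled receptors, the co-receptors Lrp5 and Lrp6 and the secreted inhibitors of the pathway were followed in the retinal pigment epithelium (RPE), the pigmented layer behind the photoreceptors, of aged mice. The set was taken by gene symbol from a table of read counts: every symbol that begins with Wnt, Fzd, Sfrp or Dkk followed by a number, plus Wif1, Frzb, Lrp5 and Lrp6. It held 41 of the table's 21861 rows, made up of 19 Wnt ligands, 10 Frizzled receptors, 2 co-receptors, 5 genes of the Sfrp family (Frzb included), 4 Dkk genes and Wif1. The animals carried an adeno-associated virus (AAV) vector that expressed either green fluorescent protein (the AAV-GFP group, 3 libraries) or the glutathione transferase GSTA4 (the AAV-GSTA4 group, 4 libraries). All had been treated 12 weeks before collection, so both groups share the label of old age, the use of an AAV vector and the delay. The strain, the sex, the age in months, the promoter of the vectors and the number of animals behind a library are not given in the sources used here. Nothing states that the libraries of a group came from separate animals, so p-values measure only the spread between these libraries. The comparison asks how the genes of the Wnt system differed in aged RPE that expressed GSTA4.

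Wnt proteins are lipid-modified secreted signals. A Wnt protein binds a Frizzled receptor, and in the beta-catenin branch it also recruits Lrp5 or Lrp6, which stops the destruction of beta-catenin and lets it act with TCF/LEF factors on target genes; other branches steer cell polarity and calcium without beta-catenin. Sfrp proteins, Frzb and Wif1 bind Wnt proteins outside the cell, whereas Dkk1, Dkk2 and Dkk4 act on Lrp5 and Lrp6. In the eye, Wnt signalling takes part in specifying the RPE and the ciliary margin, and the receptor Fzd4, with the ligand norrin, is known for its part in retinal vessel growth.

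Libraries held 15329181 to 28998964 counts, and the floor of 3 counts corresponded to 0.111 to 0.176 CPM, the unit of depth-scaled counts used throughout (library sizes adjusted by the trimmed mean of M-values, TMM). The human transgene row hGSTA4 had 1 to 3 counts in AAV-GFP and 45 to 5239 counts in AAV-GSTA4, lowest in replicate 3. The GFP row d2EGFP did not separate the groups, with 99, 3970 and 2361 counts in AAV-GFP and 163, 64, 7 and 26 counts in AAV-GSTA4 in replicate order. The library labelled AAV-GFP replicate 1 had 4.61 CPM of it, below the 8.58 CPM of AAV-GSTA4 replicate 1. In edgeR's test without AAV-GFP replicate 1, 4 of 32 members tested had an unadjusted p under 0.05, beside 12.7% of all genes. With all libraries it was 6 of 29, beside 11.9%. All 10 RPE markers were detected and took 3.00 to 6.79% of counts in AAV-GFP and 5.37 to 9.37% in AAV-GSTA4. Rod photoreceptor markers (10 genes) took 1.22 to 4.68% of counts in AAV-GFP and 0.588 to 1.12% in AAV-GSTA4, with no overlap (exact permutation test over 35 relabellings, two-sided, p = 0.0286, the smallest the design allows, and 0.171 after adjustment over 12 marker lists). AAV-GFP replicate 3 had the lowest RPE share and the highest rod share, and over all genes it correlated least with its peers (mean 0.838; 0.910 to 0.926 for each of the rest). AAV-GSTA4 replicate 2 carried lens transcripts, with 6 lens markers at 2.42% of its counts against 0.0506 to 0.338% in the other libraries. In bulk tissue, fewer cells of a type and less RNA per cell cannot be told apart.

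Of the 41 genes, 29 were expressed enough to be tested and 12 were not. In edgeR's quasi-likelihood test 0 of the 29 passed an adjusted p-value of 0.05, as did 0% of all 15075 genes tested. DESeq2, with 1.31% of genes called, and limma-voom also passed 0 of them. At an unadjusted p under 0.05, 4 members were higher in AAV-GSTA4, against 5.27% of all genes, namely Sfrp1, Sfrp5, Fzd4 and Wnt7b. Lower were 2, Dkk2 and Wnt11, against 6.63% of all genes. With library totals in place of TMM this split became 1 higher and 4 lower as the all-gene median shifted from -0.071 to -0.37 on the log2 scale. Among the 29 tested members the median log2 difference, AAV-GSTA4 less AAV-GFP, was -0.13, with 14 higher and 15 lower. The groups did not overlap for 1 member that was higher (Sfrp1, against 6.44% of all genes) and 3 that were lower (Wnt4, Wnt6 and Wnt11, against 5.61%). The pattern over roles was uneven. Receptors, co-receptors and Sfrp genes had positive medians, 0.28, 0.67 and 0.75, and ligands, Dkk genes and Wif1 negative ones, -0.80, -0.91 and -0.16. Only 2 co-receptors and 2 Dkk genes were tested. The ligand median was the value of Wnt10a (-0.80 ± 1.12 (SE)) and the Sfrp median that of Sfrp4 (0.75 ± 1.10 (SE)). No test was made of a role as a whole.

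**Figure D1:**
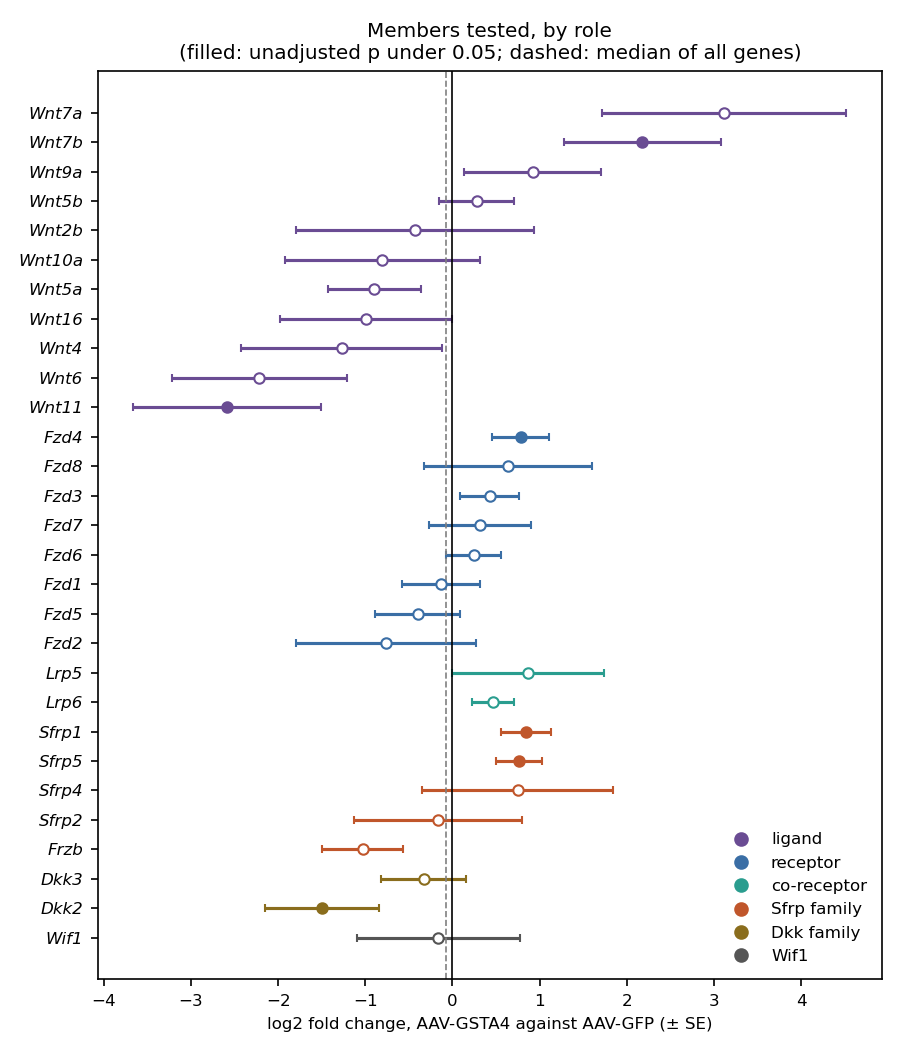
Log2 fold change (AAV-GSTA4 over AAV-GFP) with its standard error for the 29 members tested, coloured by role; filled points have an unadjusted p under 0.05 in edgeR's test and the dashed line is the median of all genes. Sfrp1, Sfrp5 and Fzd4 lie between 0.77 and 0.84 with short error bars, while the ligands spread from -2.58 to 3.11 with long ones.

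Per length of exon, a few genes made up most of the set. On the scale of CPM per kb of exon, Dkk3 had the highest level in each library and took 39.6 to 79.9% of the members' summed level. It was at 148 to 206 in AAV-GFP and 55.9 to 297 in AAV-GSTA4, above every value of any other member. Fzd4 came next by median over the 7 libraries, at 13.6 to 28.4 in AAV-GFP and 25.6 to 46.0 in AAV-GSTA4, then Sfrp5 at 10.3 to 13.9 in AAV-GFP and 13.3 to 24.2 in AAV-GSTA4 and Sfrp1 at 6.16 to 10.7 in AAV-GFP and 12.6 to 21.8 in AAV-GSTA4. The levels of Fzd4, Sfrp5 and Sfrp1 overlapped from one to the next. Fzd6 followed at 2.69 to 4.99 in AAV-GFP and 3.55 to 6.36 in AAV-GSTA4, below every value of Sfrp5. All other members had medians of 1.80 CPM per kb or lower. The ligands were scarce: their summed level was 7.19 to 7.35 CPM per kb in AAV-GFP, with the 19 ligands together, while the 5 Sfrp genes summed to 22.4 to 29.8 and the 10 Frizzled genes to 19.5 to 38.3. In AAV-GSTA4 the Sfrp sum was 37.6 to 43.1 CPM per kb, above every AAV-GFP library, the Frizzled sum 36.5 to 58.7, and the ligand sum 3.97 to 20.6. The highest ligand sum was that of replicate 2.

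**Figure D2:**
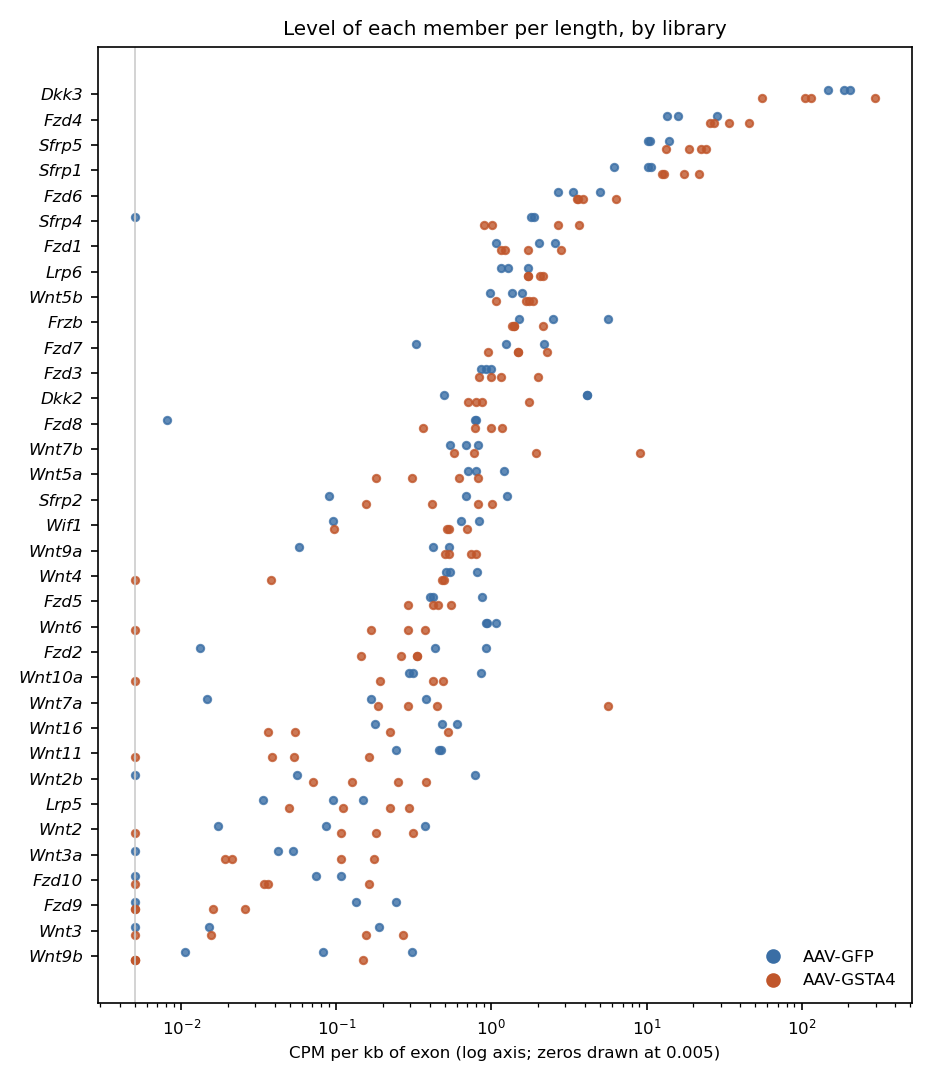
CPM per kb of exon on a log axis for the 35 members with a median above 0, one point per library, ordered by the median over all 7 libraries; zeros are drawn at the left edge. Dkk3, Fzd4, Sfrp5 and Sfrp1 have the highest medians, and Fzd8 and Sfrp4 show 1 AAV-GFP point far to the left, replicate 3.

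Of the 6 members with an unadjusted p under 0.05, 4 have a promoter window in RefSeq's table for GRCm38.p6 (250 bases before to 50 after the start), and these are shown because their transcripts are the ones that met that threshold. Each was searched on both strands for CTTTGA, the core that TCF/LEF factors bind, TAATCC, bound by OTX2, and CATGTG, bound by MITF. OTX2 and MITF are transcription factors of RPE identity. Letters in capitals mark a match, written as it reads on the printed strand.

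Fzd4 (chr7:89404116-89404415, plus strand): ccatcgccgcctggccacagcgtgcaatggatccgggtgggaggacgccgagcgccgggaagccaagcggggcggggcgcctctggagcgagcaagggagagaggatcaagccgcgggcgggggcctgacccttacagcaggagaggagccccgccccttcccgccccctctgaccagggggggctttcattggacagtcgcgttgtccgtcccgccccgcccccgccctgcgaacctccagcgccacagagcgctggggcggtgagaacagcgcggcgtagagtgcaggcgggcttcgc
Sfrp5 (chr19:42202203-42202502, minus strand): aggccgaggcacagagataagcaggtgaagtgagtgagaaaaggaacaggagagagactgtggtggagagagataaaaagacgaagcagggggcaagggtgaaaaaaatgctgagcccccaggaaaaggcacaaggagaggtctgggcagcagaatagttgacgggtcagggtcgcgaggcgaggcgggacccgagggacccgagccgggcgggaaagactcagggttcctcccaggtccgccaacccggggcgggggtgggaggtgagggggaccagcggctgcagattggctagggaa
Dkk2 (chr3:132085042-132085341, plus strand): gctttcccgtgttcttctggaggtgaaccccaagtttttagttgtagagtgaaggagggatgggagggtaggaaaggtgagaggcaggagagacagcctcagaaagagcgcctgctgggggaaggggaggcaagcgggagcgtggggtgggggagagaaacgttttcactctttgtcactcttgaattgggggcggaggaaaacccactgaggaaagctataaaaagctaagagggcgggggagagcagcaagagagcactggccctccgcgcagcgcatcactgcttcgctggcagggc
Wnt11 (chr7:98834862-98835161, plus strand): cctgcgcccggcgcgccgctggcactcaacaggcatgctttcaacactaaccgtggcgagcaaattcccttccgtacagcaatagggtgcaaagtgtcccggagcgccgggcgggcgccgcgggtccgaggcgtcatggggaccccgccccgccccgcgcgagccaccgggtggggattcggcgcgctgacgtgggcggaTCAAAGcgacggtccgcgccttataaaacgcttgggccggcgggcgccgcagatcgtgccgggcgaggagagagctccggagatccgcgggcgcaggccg
Wnt11, second start (chr7:98838595-98838894, plus strand): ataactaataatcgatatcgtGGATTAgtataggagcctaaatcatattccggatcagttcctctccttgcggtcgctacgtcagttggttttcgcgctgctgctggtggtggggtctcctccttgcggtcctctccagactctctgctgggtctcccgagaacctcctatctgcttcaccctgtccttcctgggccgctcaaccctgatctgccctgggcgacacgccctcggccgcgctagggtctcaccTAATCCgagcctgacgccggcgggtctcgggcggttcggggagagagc

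The first Wnt11 window held 1 match to CTTTGA on the reverse strand, 50 bases before the start, and the second held 2 matches to TAATCC. None of the 3 motifs was found in the windows of Fzd4, Sfrp5 and Dkk2. Among the 30 windows of the 27 members in the table, CTTTGA occurred in 5 (16.7%), against 16.0% of all 32851 windows, and TAATCC in 3 (10.0%), against 7.06%. CATGTG occurred in 0 of the 30, against 14.2% of all windows. The Fzd4 window was 72.7% G or C with 32 CpG pairs and the first Wnt11 window 71.3% with 45, where the median window had 52.7% and 7. The Sfrp5 window had 61.3% and 15 CpG pairs, and the Dkk2 window 57.7% and 11. These counts are descriptions of sequence, and no binding was measured.

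Among the ligands, 11 of 19 were tested, 4 were higher and 7 lower in AAV-GSTA4, and edgeR's test passed 0 after adjustment. Wnt11, a ligand of the beta-catenin-independent branch (chr7:98835112-98855195, plus strand), was at 1.96, 1.89 and 1.01 CPM in AAV-GFP and 0.158, 0.672, 0 and 0.221 CPM in AAV-GSTA4, listed here and below in replicate order. The groups did not overlap, AAV-GSTA4 being the lower, and AAV-GSTA4 replicate 3 had no count. The raw values, 42, 49 and 21 counts in AAV-GFP and 3, 14, 0 and 6 counts in AAV-GSTA4, were small. This gave a log2 fold change of -2.58 ± 1.08 (SE), with an unadjusted p of 0.0383 and an adjusted p of 0.397 in edgeR's test. Leaving out any 1 of 5 libraries (AAV-GFP replicates 1 and 2, AAV-GSTA4 replicates 1, 3 and 4) took the unadjusted p above 0.05, with log2 fold changes from -2.48 to -2.18. It was also above 0.05 with no expression filter, with the Y-linked covariate and with the mean level of rod markers as a covariate (0.0548, 0.0547 and 0.0878). In the reference annotation 8.8% of its exon bases overlap a processed pseudogene on the opposite strand.

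Wnt6 (chr1:74771892-74785322, plus strand), a ligand known from epithelia, was at 2.05, 2.01 and 2.35 CPM in AAV-GFP and 0.632, 0.816, 0 and 0.369 CPM in AAV-GSTA4. The AAV-GFP libraries lay within a narrow band and all AAV-GSTA4 libraries below it, in a gene with at most 52 counts. A log2 fold change of -2.21 ± 1.01 (SE) resulted, with an unadjusted p of 0.0538 and an adjusted p of 0.427 in edgeR's test. Wnt10a, 6193 bases downstream of Wnt6 on the same strand, was at 2.10, 0.772 and 0.720 CPM in AAV-GFP and 0.474, 1.20, 0 and 1.03 CPM in AAV-GSTA4. Its groups overlapped, although AAV-GSTA4 replicate 3 again had no count (log2 fold change -0.80 ± 1.12 (SE)).

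Wnt4 (chr4:137277489-137299726, plus strand), a ligand of both branches, was at 2.14, 3.36 and 2.26 CPM in AAV-GFP and 0.158, 2.02, 0 and 2.07 CPM in AAV-GSTA4. The groups did not overlap, but the AAV-GSTA4 libraries split, with replicates 2 and 4 just under the lowest AAV-GFP value and replicates 1 and 3 near 0. Its fitted difference on the log2 scale was -1.27 ± 1.15 (SE), with an adjusted p of 0.682 in edgeR's test. Wnt16 showed the same low libraries, at 2.10, 2.63 and 0.768 CPM in AAV-GFP and 0.158, 0.960, 0.235 and 2.29 CPM in AAV-GSTA4. AAV-GSTA4 replicates 1 and 3 were its lowest libraries, and replicate 4 was as high as AAV-GFP (log2 fold change -0.99 ± 0.98 (SE)). The marker list for ocular surface and ciliary epithelium (6 genes) summed to 0.0561, 0.0669 and 0.0654% of counts in AAV-GFP and 0.00706, 0.0471, 0.00577 and 0.0580% in AAV-GSTA4, with AAV-GSTA4 replicates 1 and 3 lowest. All 6 of its genes were lower in AAV-GSTA4, with log2 fold changes from -4.94 to -0.36, and none was at 0. Krt15, a basal keratin of surface epithelium and by far its most abundant gene, was at 500.0, 502 and 252 CPM in AAV-GFP and 44.7, 449, 51.8 and 552 CPM in AAV-GSTA4, so the sum follows this keratin. Krt5, another basal keratin, was at 31.8, 53.3 and 95.0 CPM in AAV-GFP and 5.16, 41.6, 6.23 and 38.5 CPM in AAV-GSTA4, and its partner Krt14 at 15.1, 36.0 and 10.5 CPM in AAV-GFP and 3.10, 13.8, 1.76 and 20.8 CPM in AAV-GSTA4. These 3 keratins were lowest in AAV-GSTA4 replicates 1 and 3, and the remaining genes were not. Krt12, the keratin of the cornea, was lowest in AAV-GSTA4 replicate 4, at 0.184 CPM, and highest in AAV-GFP replicate 3, at 112 CPM. Opcml was highest of all libraries in AAV-GSTA4 replicate 1, at 6.68 CPM, and Wfdc1 in that library, at 11.5 CPM, lay above AAV-GFP replicate 3, at 9.32 CPM. The part of this tissue in the values of Wnt4, Wnt6, Wnt10a, Wnt11 and Wnt16 was not tested.

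The pair Wnt7a and Wnt7b, closely related ligands of the beta-catenin branch, had the largest positive differences of the set. Wnt7b (chr15:85535437-85582473, minus strand) was at 3.36, 4.02 and 2.64 CPM in AAV-GFP and 9.47, 44.4, 2.82 and 3.80 CPM in AAV-GSTA4. AAV-GSTA4 replicate 2 was the highest library and replicate 1 second, while replicates 3 and 4 lay within the AAV-GFP range. The fit gave a log2 fold change of 2.18 ± 0.90 (SE), with an unadjusted p of 0.0377 and an adjusted p of 0.397 in edgeR's test. Without AAV-GSTA4 replicate 2 the log2 fold change was 0.69 with an unadjusted p of 0.257, and without any one of the 3 AAV-GFP libraries the unadjusted p was also above 0.05 (0.0699 to 0.184). It was above 0.05 as well with library totals, with the rod covariate and in limma-voom, where the log2 fold change was 0.58. Wnt7a (chr6:91363981-91411363, minus strand) was at 0.0466, 1.20 and 0.528 CPM in AAV-GFP and 1.42, 17.9, 0.588 and 0.922 CPM in AAV-GSTA4, again with replicate 2 far above the rest. Its log2 fold change was 3.11 ± 1.40 (SE), and without replicate 2 it was 0.72.

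The 6 lens markers summed to 0.133, 0.250 and 0.0506% of counts in AAV-GFP and 0.338, 2.42, 0.0561 and 0.175% in AAV-GSTA4. Replicate 2, with the highest Wnt7a and Wnt7b, had the highest lens share, and replicate 1 came second in all 3 measures. In replicate 2, Mip, the water channel of lens fibres, reached 465 CPM, against 2.06 to 23.1 CPM elsewhere, and the filament gene Bfsp2 4371 CPM, against 39.0 to 264 CPM. Of the list, 4 genes were tested and all were higher in AAV-GSTA4, by 2.45 to 4.30 on the log2 scale; Lim2 and Lenep were near 0 outside replicate 2. The part of lens tissue in Wnt7a and Wnt7b was not tested beyond the fit without replicate 2.

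**Figure D3:**
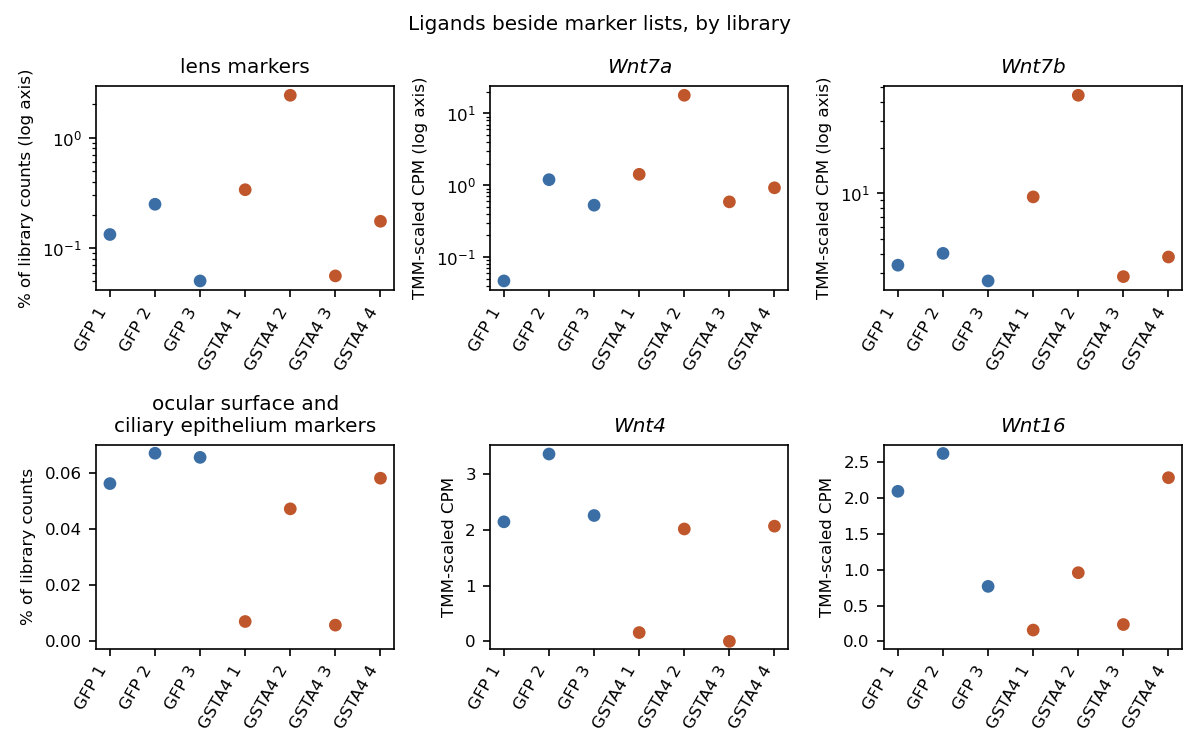
Top, share of counts on 6 lens markers beside the levels of Wnt7a and Wnt7b (log axes); bottom, share of counts on 6 ocular surface and ciliary epithelium markers (mostly Krt15) beside the levels of Wnt4 and Wnt16, each by library, AAV-GFP in blue and AAV-GSTA4 in orange. AAV-GSTA4 replicate 2 is highest in all 3 top panels, and AAV-GSTA4 replicates 1 and 3 are lowest in all 3 bottom panels.

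Wnt5a and Wnt5b, the best known ligands of the beta-catenin-independent branch, had differences of opposite sign. Wnt5a was at 6.25, 5.48 and 9.36 CPM in AAV-GFP and 2.42, 4.80, 1.41 and 6.42 CPM in AAV-GSTA4. AAV-GSTA4 replicates 1 to 3 lay below all AAV-GFP libraries and replicate 4 within their range (log2 fold change -0.90 ± 0.54 (SE), adjusted p 0.522 in edgeR's test). Wnt5b, the ligand with the highest median level per length, was steadier, at 4.19, 3.59 and 2.59 CPM in AAV-GFP and 4.63, 4.89, 4.41 and 2.84 CPM in AAV-GSTA4, with overlapping groups (log2 fold change 0.28 ± 0.43 (SE)). Wnt9a was at 1.40, 1.78 and 0.192 CPM in AAV-GFP and 2.47, 2.64, 1.76 and 1.66 CPM in AAV-GSTA4, lowest in AAV-GFP replicate 3 (log2 fold change 0.92 ± 0.78 (SE)). Wnt2b was highest in AAV-GFP replicate 3, at 3.27 CPM, and at 0 to 1.58 CPM elsewhere. Its log2 fold change of -0.43 ± 1.37 (SE) became 2.90 without that library.

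The 8 ligands not tested were at or near the floor in most libraries. Wnt1 had no count in 6 libraries and 4 counts in AAV-GSTA4 replicate 4. Wnt8b had at most 6 counts and none in AAV-GSTA4, and Wnt10b had at most 11. Wnt3a had at most 10, Wnt3 at most 14, Wnt2 at most 18, Wnt8a at most 24 and Wnt9b at most 36. The highest counts of Wnt8a and Wnt10b were both in AAV-GFP replicate 3, and that of Wnt9b in AAV-GFP replicate 2. None of these ligands was above 3 counts in every library of a group, so differences were not detectable at this depth.

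Among the Frizzled receptors, 8 of 10 were tested, 5 higher and 3 lower, and edgeR's test passed 0 after adjustment. Fzd4 (chr7:89404355-89413134, plus strand), the receptor of norrin and of several Wnt proteins, took 56.1 to 74.1% of the Frizzled signal per length in AAV-GFP and 69.5 to 79.8% in AAV-GSTA4. Its level was 191, 108 and 91.1 CPM in AAV-GFP and 309, 172, 183 and 230.2 CPM in AAV-GSTA4. AAV-GSTA4 replicates 1 and 4 exceeded all AAV-GFP libraries, while replicates 2 and 3 lay under AAV-GFP replicate 1. The means were 129.9 CPM ± 53.4 (SD, n = 3) and 224 CPM ± 62.3 (SD, n = 4). The groups thus overlapped, with a log2 fold change of 0.78 ± 0.33 (SE), an unadjusted p of 0.0380 and an adjusted p of 0.397 in edgeR's test. With the rod covariate it was 0.24 (unadjusted p 0.570), and with library totals 0.55 (unadjusted p 0.0934). Leaving out AAV-GFP replicate 2 or 3, or AAV-GSTA4 replicate 1 or 4, also took the unadjusted p above 0.05, with log2 fold changes from 0.59 to 0.80; without AAV-GFP replicate 1 it was 1.17.

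Fzd6, a receptor of the polarity branch, was at 16.2, 24.1 and 13.0 CPM in AAV-GFP and 17.1, 30.7, 18.8 and 17.5 CPM in AAV-GSTA4. The groups overlapped and AAV-GSTA4 replicate 2 was highest (log2 fold change 0.24 ± 0.32 (SE), which turned to -0.0308 with library totals). Fzd3, another polarity receptor, was at 11.7, 12.8 and 10.9 CPM in AAV-GFP and 25.4, 14.7, 12.8 and 10.7 CPM in AAV-GSTA4, close together in AAV-GFP and highest in AAV-GSTA4 replicate 1 (log2 fold change 0.43 ± 0.34 (SE)). Fzd1 was at 10.7, 8.53 and 4.51 CPM in AAV-GFP and 11.7, 7.25, 5.11 and 4.83 CPM in AAV-GSTA4, with overlapping groups. Fzd5, known in the developing eye, was highest in AAV-GFP replicate 3 at 6.003 CPM and lay between 2.02 and 3.79 CPM in AAV-GSTA4. In the reference annotation 17.8% of its exon bases overlap an unreviewed transcript on the opposite strand.

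In contrast to Fzd5, the receptors Fzd2, Fzd7 and Fzd8 were all lowest in AAV-GFP replicate 3, as were Fzd1, Fzd4 and Fzd6. Fzd8 was at 4.71, 4.75 and 0.0480 CPM in AAV-GFP and 6.999, 2.16, 5.94 and 4.69 CPM in AAV-GSTA4. Fzd7 was at 5.59, 9.85 and 1.49 CPM in AAV-GFP and 10.4, 4.32, 6.70 and 6.68 CPM in AAV-GSTA4 and Fzd2 at 1.58, 3.36 and 0.0480 CPM in AAV-GFP and 1.21, 0.960, 0.529 and 1.22 CPM in AAV-GSTA4. Outside that library the groups overlapped for Fzd7 and Fzd8, whereas both remaining AAV-GFP values of Fzd2 lay above AAV-GSTA4. In the order Fzd8, Fzd7 and Fzd2, the log2 fold changes were 0.64 ± 0.96 (SE), 0.31 ± 0.58 (SE) and -0.76 ± 1.03 (SE). Fzd9 had at most 12 counts, in AAV-GFP replicate 1, and Fzd10 at most 11. Neither was tested.

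The co-receptors Lrp5 and Lrp6 were both higher in AAV-GSTA4 in the fit, without passing the test. Lrp6 was at 23.5, 15.6 and 17.4 CPM in AAV-GFP and 29.4, 23.5, 28.03 and 23.5 CPM in AAV-GSTA4. AAV-GSTA4 replicates 1 and 3 exceeded all AAV-GFP libraries, while replicates 2 and 4 were level with AAV-GFP replicate 1. Its log2 fold change of 0.47 ± 0.24 (SE) had an adjusted p of 0.467 in edgeR's test. Lrp5 was far lower per length, so that Lrp6 made up 89.6 to 98.1% of the co-receptor signal per length in AAV-GFP and 87.4 to 97.2% in AAV-GSTA4. Lrp5 was at 0.326, 0.927 and 1.44 CPM in AAV-GFP and 2.16, 0.480, 2.88 and 1.07 CPM in AAV-GSTA4, with overlapping groups (log2 fold change 0.87 ± 0.87 (SE)).

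Among the secreted inhibitors, Sfrp1 and Sfrp5 had the smallest unadjusted p-values of the whole set. Sfrp1 (chr8:23411502-23449632, plus strand), which binds Wnt proteins through a Frizzled-like domain, was at 45.0, 46.9 and 26.9 CPM in AAV-GFP and 55.3, 95.2, 76.7 and 56.7 CPM in AAV-GSTA4. Every AAV-GSTA4 library lay above every AAV-GFP library. The means were 39.6 CPM ± 11.02 (SD, n = 3) and 71.0 CPM ± 18.9 (SD, n = 4), and the log2 fold change was 0.84 ± 0.29 (SE), a fold of 1.79. The unadjusted p was 0.0153 and the adjusted p 0.367 in edgeR's test. Across the 18 alternatives the log2 fold change lay between 0.46 and 0.98, with an unadjusted p under 0.05 in 16. The exceptions were the rod covariate (0.59, unadjusted p 0.215) and the fit without AAV-GFP replicate 3 and AAV-GSTA4 replicate 2 together (0.46, unadjusted p 0.0674).

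Sfrp5 (chr19:42197971-42202252, minus strand), its close relative, was at 26.4, 19.5 and 19.98 CPM in AAV-GFP and 45.9, 25.3, 35.6 and 42.6 CPM in AAV-GSTA4. AAV-GSTA4 replicates 1, 3 and 4 lay above all AAV-GFP libraries, and replicate 2 just under AAV-GFP replicate 1. The means were 22.0 CPM ± 3.87 (SD, n = 3) and 37.4 CPM ± 9.11 (SD, n = 4). These correspond to a log2 fold change of 0.77 ± 0.26 (SE), a fold of 1.70, with an unadjusted p of 0.0163 and an adjusted p of 0.372 in edgeR's test. The unadjusted p was above 0.05 with the rod covariate (log2 fold change 0.48), with library totals (0.49) and without AAV-GFP replicate 2 (0.69). Beside both genes, 8 of 10 RPE markers were higher in AAV-GSTA4 (median 0.64 on the log2 scale), and all 10 rod markers were lower (median -1.21). Because rod shares did not overlap between the groups, the rod covariate cannot separate tissue makeup from group. The part of tissue makeup in Fzd4, Sfrp1 and Sfrp5 was not tested.

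**Figure D4:**
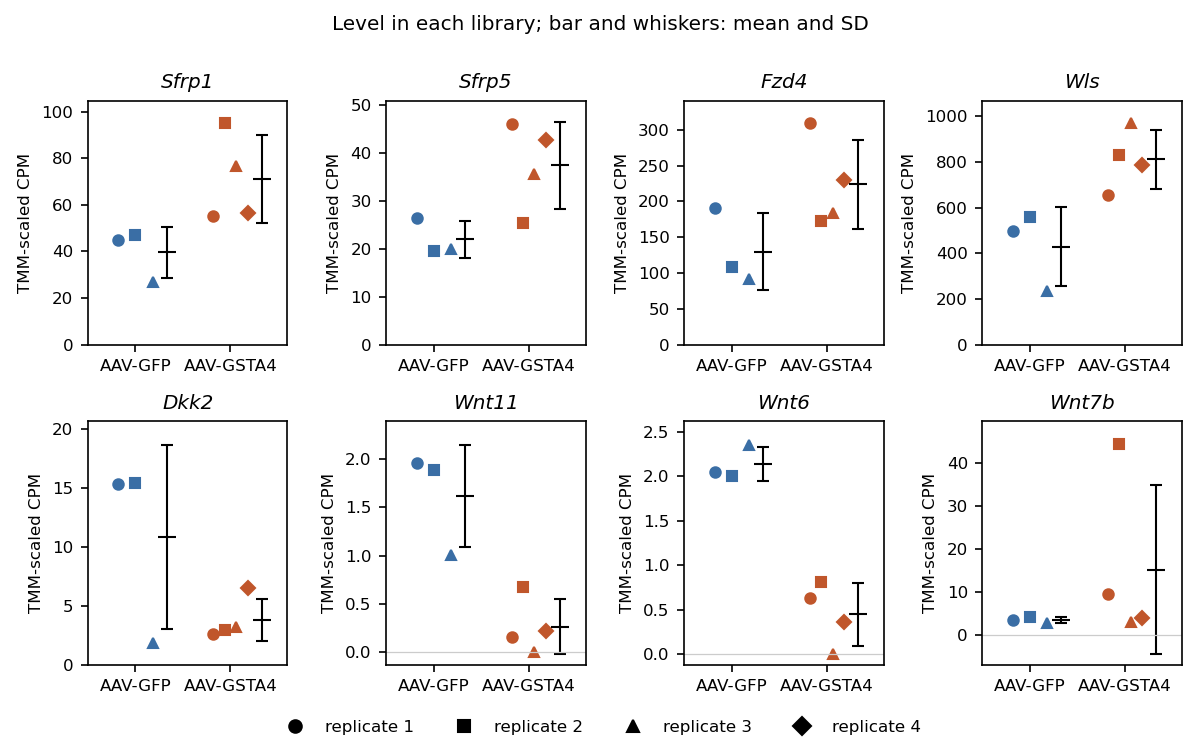
TMM-scaled CPM in each library for 7 members and for Wls, the Wnt transport receptor; symbols give the replicate, and the bar with whiskers is the mean ± SD of 3 AAV-GFP or 4 AAV-GSTA4 libraries. Sfrp1, Wls, Wnt11 and Wnt6 show no overlap between groups, Dkk2 is low in AAV-GFP replicate 3, and Wnt7b is high in AAV-GSTA4 replicate 2.

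The 3 other members of the Sfrp family differed in sign. Frzb, the Wnt-binding protein also called Sfrp3, was at 8.11, 4.90 and 18.2 CPM in AAV-GFP and 6.95, 4.51, 4.53 and 4.39 CPM in AAV-GSTA4. AAV-GFP replicate 3 was highest, and AAV-GSTA4 replicates 2 to 4 lay just under the lowest AAV-GFP library. The log2 fold change of -1.03 ± 0.46 (SE) had an adjusted p of 0.425 in edgeR's test, and was -0.35 without AAV-GFP replicate 3. In that library the 6 Mueller glia markers took 0.0895% of raw counts, against 0.0435 to 0.04997% in the others. The 8 inner retinal neuron markers took 0.0933% there, and 0.0686 and 0.0735% in AAV-GFP replicates 1 and 2. In AAV-GSTA4 they took 0.0214 to 0.0486%, so the groups did not overlap. The exact permutation test gave p = 0.0286, and 0.171 after adjustment over the marker lists. All 7 genes tested of this list were lower in AAV-GSTA4. These shares are not TMM-scaled, and the TMM factor of AAV-GFP replicate 3 was 1.36, against 0.868 to 1.05 in the others. Glul, the most abundant of the first list, was lowest of all libraries there, at 341 CPM. Trpm1, the most abundant of the second, was at 332 CPM there, under AAV-GFP replicates 1 and 2 at 462 and 549 CPM. Kcnj10, Calb1 and Rbpms were not highest there either, and the remaining genes of both lists were. The part of these cells in the Frzb value was not tested. Sfrp4 was at 7.50, 7.92 and 0 CPM in AAV-GFP and 15.4, 3.74, 11.3 and 4.21 CPM in AAV-GSTA4, with no count in AAV-GFP replicate 3 (log2 fold change 0.75 ± 1.10 (SE)). Sfrp2 was at 2.703, 1.47 and 0.192 CPM in AAV-GFP and 0.895, 0.336, 1.76 and 2.18 CPM in AAV-GSTA4, also lowest in AAV-GFP replicate 3 and with overlapping groups. For Sfrp2, 16.1% of the exon bases overlap an antisense transcript.

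Stromal fibroblast markers (6 genes), which include Dcn and Lum, summed to 0.0935, 0.0626 and 0.0237% of counts in AAV-GFP and 0.0305, 0.0270, 0.0330 and 0.0593% in AAV-GSTA4. AAV-GFP replicate 3, where Sfrp2, Sfrp4, Fzd2, Fzd7, Fzd8 and Dkk2 were lowest, was also lowest in this list. Fzd1, Fzd4, Fzd6, Sfrp1, Wnt5b, Wnt7b and Wnt9a were lowest in that library too. AAV-GSTA4 replicate 1, at 0.0305%, had the highest Sfrp4, Fzd7 and Fzd8. Within the list, Col1a2 was lower in AAV-GSTA4 replicate 2 (15.9 CPM) than in AAV-GFP replicate 3 (24.0 CPM). The part of stromal tissue in any of these members was not tested.

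Dkk2 (chr3:132085292-132180304, plus strand), a modulator that binds Lrp5 and Lrp6, was at 15.3, 15.4 and 1.82 CPM in AAV-GFP and 2.63, 2.93, 3.23 and 6.49 CPM in AAV-GSTA4. AAV-GFP replicates 1 and 2 stood far above the rest, AAV-GSTA4 replicate 4 was intermediate, and AAV-GFP replicate 3 was lowest of all. Its log2 fold change was -1.50 ± 0.66 (SE), at an unadjusted p of 0.0467 and an adjusted p of 0.412 in edgeR's test. Without AAV-GFP replicate 3 it was -1.996 with an unadjusted p of 0.000672. Without any other single library except AAV-GSTA4 replicate 4 the unadjusted p was above 0.05, with log2 fold changes from -1.42 to -1.16. With the rod covariate the value was -3.37 (unadjusted p 0.00206).

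Dkk3 (chr7:112116017-112159057, minus strand), a divergent family member that does not share the action on Lrp6, was the most abundant gene of the set per length, at 498, 629 and 691 CPM in AAV-GFP and 356, 999, 188 and 389 CPM in AAV-GSTA4. AAV-GSTA4 replicate 2 was highest and replicate 3 lowest of all 7 libraries, so the AAV-GSTA4 libraries enclosed the AAV-GFP range. On the log2 scale the difference was -0.33 ± 0.49 (SE), with an adjusted p of 0.814 in edgeR's test, and it moved to -0.96 without replicate 2 (unadjusted p 0.0197) and to -0.0444 without replicate 3. Dkk1, the best studied antagonist of the family, had 3, 36 and 0 counts in AAV-GFP and 0, 0, 0 and 20 counts in AAV-GSTA4 and was not tested. Dkk4 had at most 5 counts. Wif1, which binds Wnt proteins directly, was at 2.00, 0.232 and 1.54 CPM in AAV-GFP and 1.26, 1.68, 0.235 and 1.29 CPM in AAV-GSTA4, with overlapping groups and low libraries in both (log2 fold change -0.16 ± 0.93 (SE)).

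The rest of the pathway was read from 7 lists with 66 genes in all, some in more than 1 list, of which 61 were tested. In edgeR's test 0 had an adjusted p under 0.05. At an unadjusted p under 0.05, 7 were higher and 4 lower, against 5.27% and 6.63% of all genes. Of the 4 genes of Wnt secretion and inactivation, 2 were higher at that level, Wls and Trabd2b, a membrane-bound protease that inactivates Wnt proteins (log2 fold change 1.45 ± 0.59 (SE)). Wls, which carries lipid-modified Wnt proteins to the cell surface, was at 496, 558 and 235 CPM in AAV-GFP and 657, 832, 969.8 and 786 CPM in AAV-GSTA4. All AAV-GSTA4 libraries lay above the AAV-GFP range, with a log2 fold change of 0.92 ± 0.34 (SE) and an adjusted p of 0.374 in edgeR's test. It was 0.44 with the rod covariate (unadjusted p 0.384) and 0.62 without AAV-GFP replicate 3, and without AAV-GSTA4 replicate 3 the unadjusted p was 0.0551. Porcn, the acyltransferase that lipidates Wnt proteins, overlapped between the groups, at 18.9, 20.6 and 28.2 CPM in AAV-GFP and 26.7, 21.5, 22.2 and 22.2 CPM in AAV-GSTA4 (log2 fold change 0.0386 ± 0.23 (SE)).

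Of the 12 other receptors and extracellular regulators, 9 were tested and 1 was higher at an unadjusted p under 0.05. That gene was Sostdc1, a secreted antagonist of Lrp6 and of BMP proteins, at 133, 133 and 69.1 CPM in AAV-GFP and 181, 175, 310.1 and 235 CPM in AAV-GSTA4. The groups did not overlap, with AAV-GFP replicate 3 lowest, for a log2 fold change of 1.01 ± 0.32 (SE) and an adjusted p of 0.363 in edgeR's test. Without that library it was 0.76 (unadjusted p 0.0156), and with the rod covariate 0.56 (unadjusted p 0.246). Ndp, which encodes norrin, the Fzd4 ligand, was at 4.52, 2.39 and 4.85 CPM in AAV-GFP and 1.53, 3.26, 0.823 and 1.29 CPM in AAV-GSTA4, and Tspan12, the partner of Fzd4 in norrin signalling, at 31.7, 17.1 and 14.1 CPM in AAV-GFP and 11.5, 15.7, 4.47 and 23.4 CPM in AAV-GSTA4. Both had overlapping groups and negative log2 fold changes, -1.18 ± 0.60 (SE) and -0.60 ± 0.50 (SE), opposite in sign to Fzd4.

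Of the 9 R-spondins, their Lgr receptors and the ligases that clear Frizzled proteins, 8 were tested, and Rspo1 was higher and Lgr5 lower at an unadjusted p under 0.05. Rspo1, which raises the response to Wnt proteins, was at 0.606, 0.270 and 0 CPM in AAV-GFP and 2.84, 11.2, 0.588 and 1.03 CPM in AAV-GSTA4, highest in AAV-GSTA4 replicate 2, the library with the most lens transcripts.

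Among the 16 cytoplasmic transducers, Apc and its relative Apc2 were lower at an unadjusted p under 0.05 and 0 were higher. Apc2 was at 6.01, 10.6 and 24.2 CPM in AAV-GFP and 10.0, 5.66, 3.94 and 4.24 CPM in AAV-GSTA4. Its groups overlapped and AAV-GFP replicate 3 was highest (log2 fold change -1.19 ± 0.52 (SE)). Apc, the scaffold of the beta-catenin destruction complex, was at 32.9, 28.7 and 35.3 CPM in AAV-GFP and 19.998, 26.2, 20.1 and 21.7 CPM in AAV-GSTA4, with no overlap (log2 fold change -0.55 ± 0.21 (SE), adjusted p 0.379 in edgeR's test). Ctnnb1, which encodes beta-catenin, overlapped between the groups, at 109, 108 and 100.3 CPM in AAV-GFP and 113, 140.4, 75.0 and 91.4 CPM in AAV-GSTA4, with a log2 fold change of -0.0106 ± 0.24 (SE). Of the 13 nuclear factors, 12 had negative log2 fold changes, as did 8355 of all 15075 genes tested. Tcf7l1, Lef1, Bcl9, Bcl9l, Pygo2, Tle1, Tle2 and Tle3 were highest of all libraries in AAV-GFP replicate 3. Tcf7, Tcf7l2, Pygo1, Ctnnbip1 and Tle4 were not. Of the list 1 gene, Lef1, had an unadjusted p under 0.05. In the polarity list, Vangl2 and Daam1 were higher at that level and did not overlap, with log2 fold changes of 1.20 ± 0.51 (SE) and 0.68 ± 0.24 (SE). For Daam1, which links Dishevelled to the actin machinery, the value was 0.34 with library totals and 1.18 with the rod covariate. Of the 18 alternatives, the unadjusted p was under 0.05 in 10 for Apc, 13 for Daam1 and 7 for Vangl2.

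The 12 beta-catenin target genes were mixed in sign, with 3 of 11 tested higher and 8 lower. Axin2, the most widely used readout of the beta-catenin branch, was at 3.08, 3.17 and 5.28 CPM in AAV-GFP and 3.95, 1.58, 3.76 and 2.84 CPM in AAV-GSTA4, with overlapping groups (log2 fold change -0.34 ± 0.50 (SE)). Ccnd1, the cyclin of the G1 phase, which other pathways also control, was at 9.55, 8.88 and 4.27 CPM in AAV-GFP and 15.8, 17.5, 19.4 and 16.2 CPM in AAV-GSTA4. All AAV-GSTA4 libraries lay above all AAV-GFP libraries, with a log2 fold change of 1.18 ± 0.33 (SE) and an adjusted p of 0.363 in edgeR's test. Without AAV-GFP replicate 3 it was 0.90 (unadjusted p 0.00589), and with the rod covariate 0.68 (unadjusted p 0.194). Notum, a secreted enzyme that inactivates Wnt proteins, did not overlap between the groups, at 0.606, 1.20 and 0.384 CPM in AAV-GFP and 0.105, 0.240, 0.118 and 0.332 CPM in AAV-GSTA4, close to the floor, with an unadjusted p of 0.0831. Lef1 and Lgr5 were lower at an unadjusted p under 0.05 and both were highest in AAV-GFP replicate 3, at 8.02 and 23.5 CPM, against at most 3.59 and 4.83 CPM elsewhere.

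**Figure D5:**
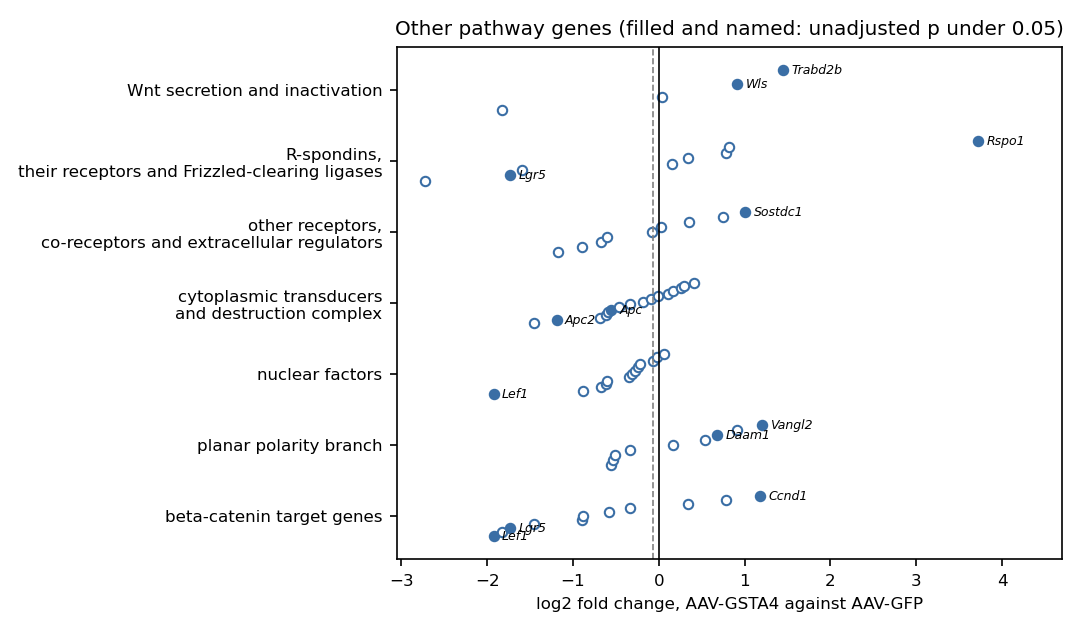
Log2 fold change (AAV-GSTA4 over AAV-GFP) for the tested genes of 7 other pathway lists; filled and named points have an unadjusted p under 0.05 in edgeR's test, genes in 2 lists appear in both, and the dashed line is the median of all genes. Wls, Sostdc1, Daam1, Vangl2 and Ccnd1 lie to the right and Apc, Lef1 and Lgr5 to the left, and none passed the adjusted threshold.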

How the data were processed

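Poly(A) RNA from 7 preparations was converted to full-length cDNA by template switching, amplified and cut by a transposase, per the labels' protocols. The authors deposited raw read counts per gene symbol; STAR 2.7.1a, featureCounts 1.6.2 and the builds GRCm38 and GRCh38 are named, per the submitters' processing notes, without roles. The annotation, the strand setting and the multi-mapping rule are not given in the sources used here, and counts include PCR copies. All columns were matched to samples by library name (0 left over), and replicates are named by sample title. The members and lists were chosen with earlier results of these data known. Genes were named by rule: members with an unadjusted p under 0.05, members whose groups did not overlap, the 3 with the highest mean CPM in each role, and of the other lists genes meeting both criteria; further genes were named after their values were seen.

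The test was edgeR 4.0.16 (quasi-likelihood, robust, TMM scaling, default expression filter, all 7 libraries, group only, R 4.3.3) over all 15075 genes that passed the filter, with Benjamini-Hochberg adjustment and a threshold of 0.05. Alternatives were median-of-ratios scaling, library totals, no filter, at least 10 counts in every library, DESeq2 1.42.0, limma-voom (limma 3.58.1) with quality weights, replicate blocks, rod and Y-linked covariates, and each library left out. The fit without both libraries that stand apart was chosen after seeing the data. Rod shares did not overlap between the groups, so fits with the rod covariate cannot separate tissue makeup from group. Lengths and positions are exon unions and gene spans of GENCODE M21 (GRCm38), which matched all 41 members, and promoters are RefSeq's (GRCm38.p6).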

Additional observations from a re-analysis of the deposited data

Results flagged for a closer look

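In groups of 4 libraries, 1 library was set apart from the other 3 by a gap beyond Dixon's critical value for 6 of the 47 values examined, where chance flags about 5%. AAV-GSTA4 replicate 2 was high for Wnt7a, at 17.9 CPM, for Wnt7b, at 44.4 CPM, for Fzd6, at 30.7 CPM, and for the lens markers, at 2.42% of counts. AAV-GSTA4 replicate 4 was high for Dkk2, at 6.49 CPM. AAV-GSTA4 replicate 1 was high for Frzb, at 6.95 CPM.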

How the results depend on the processing

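The count of members past the adjusted threshold was 0 in all 18 alternatives. At an unadjusted p under 0.05 the main test had 6 of 29 members, beside 11.9% of all genes. A replicate block by title number gave 3 of 29 (5.63% of all genes) and one by library-name number 5 of 29 (7.62%). The rod covariate gave 1 of 29, Dkk2 (8.72%). With 1 library left out it was 3 to 6 of 28 to 33 (6.88 to 12.7%), lowest without AAV-GFP replicate 2. The other alternatives gave 5 to 8 of 15 to 41 (9.38 to 21.8%), with 8 of 29 beside 21.8% in limma-voom. The title-number block took Sfrp5 (unadjusted p 0.0690), Fzd4 (0.0542), Dkk2 (0.0982) and Wnt11 (0.0645) above 0.05, and the library-name block Dkk2 (0.283) and Wnt7b (0.349). Among the other pathway genes, the former also took Sostdc1 (0.0632) and both blocks took Wls, Apc and Vangl2 above it, and the latter Daam1. The labels do not say that equal numbers pair the libraries, and no same-numbered pair correlated above 0.1. The values were -0.0889, 3.3e-05 and 0.009 by title number and -0.0889, 0.0146 and -0.128 by library-name number. By title number no AAV-GFP library correlated best with its own number, and by library name only number 3 did. The count of members whose groups did not overlap, 4 in the main test, was 5 to 9 with 1 library left out. It was 10 without both libraries that stand apart. Fewer libraries make overlap rarer. The share of all genes was not counted with libraries left out, so these counts cannot be judged against it. Of 613 values for 35 genes, 30 changed sign, in 10 members, none of which had an unadjusted p under 0.05 in the main test; the causes were not tested. With the title-number block Fzd1 was 0.0239 and Wnt2b 1.83, and with the library-name block Fzd2 was 0.0045, Sfrp2 0.56 and Wnt2b 1.26. With the rod covariate Fzd5 was 0.36, Fzd7 -0.19, Fzd8 -0.54 and Wnt2b 3.41, and with the Y-linked covariate Wnt2b was 0.0781. In limma-voom Fzd6 was -0.12, Fzd7 -0.21, Wif1 0.95, Wnt2b 3.20 and Wnt5b -0.0395. With library totals Fzd6 was -0.0308, and without both libraries that stand apart Fzd5 was 0.20 and Fzd6 -0.18. With 1 library left out, values ranged from -0.45 to 0.15 for Fzd1, -1.33 to 0.26 for Fzd2, -0.58 to 0.0547 for Fzd5, -0.14 to 0.99 for Fzd7, -0.68 to 0.63 for Sfrp2, -0.65 to 0.35 for Wif1 and -1.002 to 2.90 for Wnt2b. Of the 19 ligands, 15 had fewer than 100 counts in every library, so small differences among them were not detectable at this depth.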
